A study of Mus musculus with 11 samples.

Results

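The collagen and laminin genes of mouse embryonic stem cells (ESCs) were taken as every gene symbol, present in all 11 expression tables, that is made of Col, a number, a and a number, or of Lama, Lamb or Lamc and a digit. This naming rule found 54 of the 23284 genes listed. Of these, 17 belong to the basement membrane set, with 6 collagen IV genes and 11 laminin chain genes, and 37 are other collagens. The 11 libraries fall into 5 groups. The WT polyA group holds 3 libraries of polyA-selected RNA from wild-type (WT) cells. The other 4 groups hold 2 libraries each of ribodepleted RNA, which is total RNA from which ribosomal RNA was removed. They are WT cells at 0 h, WT cells after 4 h with 10 μg/ml α-amanitin (a poison of RNA polymerase II), and triple knock-out (TKO) cells, which lack Tet1, Tet2 and Tet3, sampled at the same times with the same dose. The Tet enzymes oxidise 5-methylcytosine to 5-hydroxymethylcytosine. All cells grew on gelatin with serum and leukemia inhibitory factor. The study describes the α-amanitin libraries as biological duplicates without saying how the cultures were kept apart. The TKO cells are an existing line, and how many clones it comprises is not given in the sources used here. Genotype and cell line therefore cannot be told apart, and the p-values measure only the spread between libraries.

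Basement membranes are thin sheets of extracellular matrix that underlie epithelia and surround muscle, fat and nerve. Laminins, each made of an α, a β and a γ chain, form a first network on the cell surface, and collagen IV, a triple helix of α chains, forms a covalently linked network that stabilises the sheet. Fibrillar collagens build the fibrils of connective tissue, and other collagens decorate fibrils, anchor the basement membrane or span the cell membrane. In the early mouse embryo, laminin with α1 and α5 chains and collagen IV with α1 and α2 chains are among the earliest matrix proteins made.

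The reads recovered for the polyA libraries numbered 71876996 to 81250250, and those for the ribodepleted libraries numbered 25223967 to 29478041. All 8 pluripotency markers examined were over 1 TPM (TPM is each gene's length-corrected share of a library's transcripts, set to a common total) in every library. Tet1 lay between 123 and 148 TPM in WT cells at 0 h and between 32.3 and 32.8 TPM in TKO cells. Tet2 lay between 47.7 and 57.2 TPM in WT and between 7.79 and 8.32 TPM in TKO cells. Tet3, at 1.46 to 1.47 TPM in WT and 1.5 to 1.64 TPM in TKO cells, does not check the labels, and gene totals do not resolve which exons the knock-out alleles lack. The 2 TKO libraries at 4 h differed from each other more than those at 0 h, with a chi-square per degree of freedom of 7.36 against 1.53.

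How many of the 54 genes were expressed was asked first. A mean over 1 TPM was reached by 19 genes in WT polyA, 19 in WT at 0 h, 18 in WT at 4 h, 26 in TKO at 0 h and 27 in TKO at 4 h. In the basement membrane set of 17 genes, the counts were 8, 8, 8, 11 and 12 in the same order. Among the 37 other collagens, they were 11, 11, 10, 15 and 15. Over all genes listed, the counts were 12274, 12253, 11978, 12710 and 12552. A set of 16 genes was over 1 TPM in every group, and 30 genes were over it in at least 1 group. The genes over 1 TPM in TKO at 0 h and not in WT at 0 h were the basement membrane genes Col4a5, Lama3 and Lamb3 and the collagens Col5a2, Col8a1, Col12a1 and Col27a1. Lama4 was over 1 TPM at 4 h in TKO cells only on its mean, with 1.06 and 0.992 TPM.

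**Figure D1:**
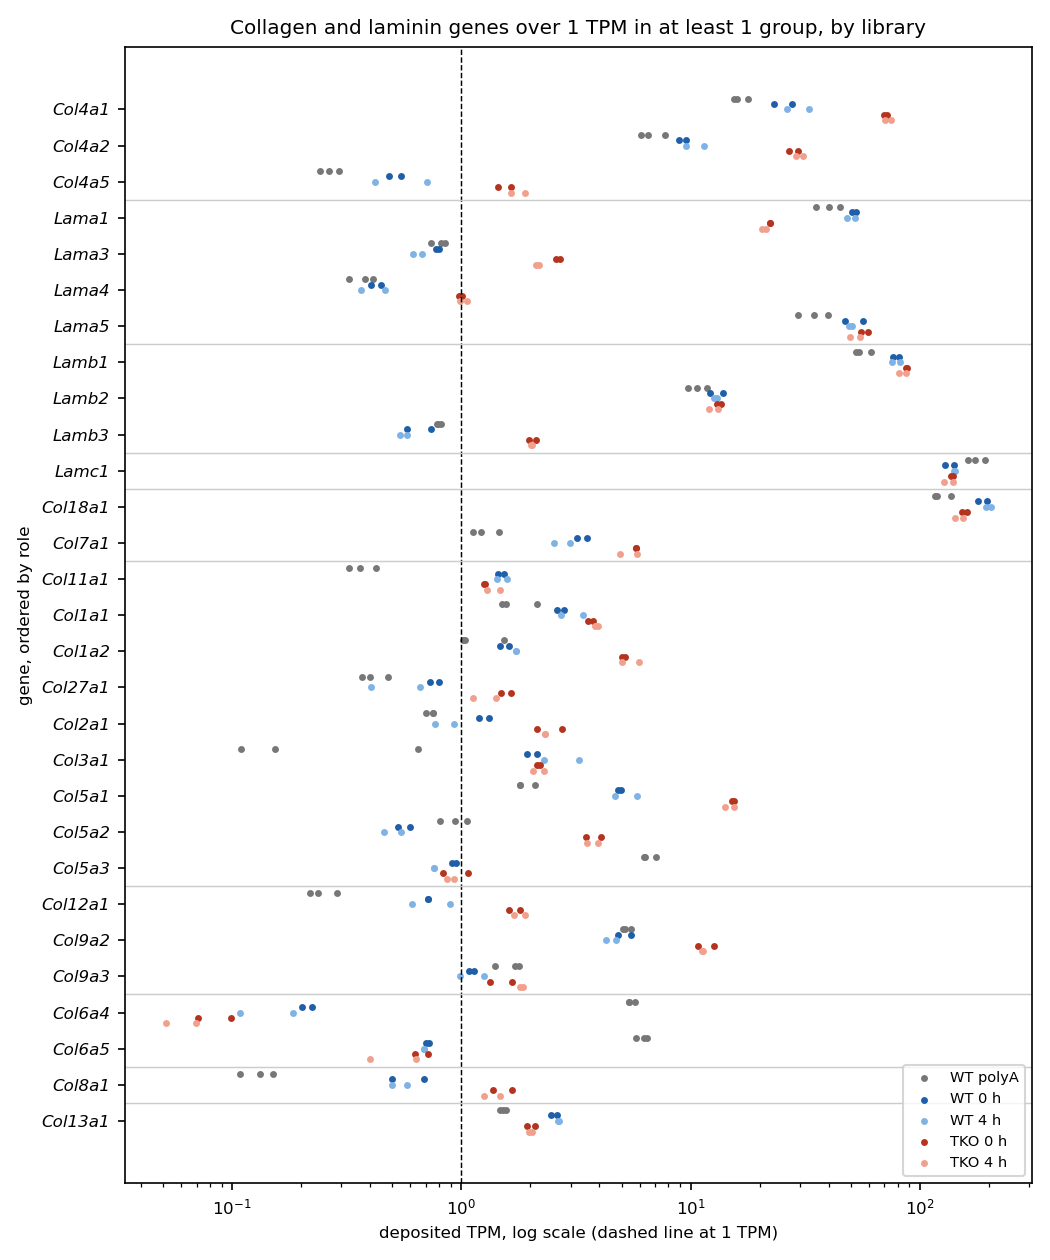
Deposited TPM on a log axis for 29 of the 30 genes over 1 TPM in at least 1 group, with 1 point per library, coloured by group, and genes ordered by role. Col18a1, Lamc1, Lamb1, Lama5 and Lama1 lie on the right, and the TKO points of Col4a1, Col4a2, Col5a1 and Col5a2 stand apart from all WT points of ribodepleted RNA.

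The remaining 24 genes were below 1 TPM in every group, with no library above 0.975 TPM. They were the basement membrane genes Col4a3, Col4a4, Col4a6, Lama2 and Lamc3, and the collagens Col6a1, Col6a2, Col6a3, Col6a6, Col8a2, Col9a1, Col10a1, Col11a2, Col14a1, Col15a1, Col16a1, Col17a1, Col19a1, Col20a1, Col22a1, Col23a1, Col24a1, Col25a1 and Col28a1. Each rested on between 5 and 321 recovered reads summed over the 8 ribodepleted libraries.

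The basement membrane set outweighed the other collagens in every library. Its summed TPM was 393 and 371 in WT at 0 h, 381 and 400 in WT at 4 h, 462 and 460 in TKO at 0 h, 459 and 440 in TKO at 4 h, and 351, 393 and 329 in WT polyA. The other collagens summed to 230 and 215 TPM in WT at 0 h, 234 and 229 in WT at 4 h, 228 and 219 in TKO at 0 h, 221 and 207 in TKO at 4 h, and 158, 181 and 155 in WT polyA. The basement membrane sums of TKO and WT did not overlap at either time, with a ratio of means of 1.21 at 0 h and 1.15 at 4 h. After scaling of the libraries to a common median, the ratios were 1.13 and 1.03. For 2 against 2 libraries the two-sided exact permutation test cannot go below p = 0.333, so no sum could pass 0.05. In bulk RNA, fewer cells of a type and less RNA per cell cannot be told apart.

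A single gene made up most of the other collagens. Col18a1, whose product is the heparan sulfate collagen of basement membrane zones and the source of endostatin, took between 83.9% and 86.9% of their summed TPM in the ribodepleted WT libraries and between 69.1% and 70.3% in the TKO libraries. Without Col18a1, the other collagens summed to 33.6 and 34.6 TPM in WT at 0 h and to 67.6 and 65.5 TPM in TKO at 0 h. At 0 h the Col18a1 level was thus lower in both TKO libraries than in both WT libraries, and the sum of the rest was higher.

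TKO cells were then compared with WT cells gene by gene. Of the 54 genes, 25 passed the filter of a mean scaled TPM above 1 over the 8 ribodepleted libraries, 11 of the basement membrane set and 14 other collagens. A gene was called at a Benjamini-Hochberg adjusted p under 0.05 (limma, over all 12467 genes tested) and a change of more than 1.5-fold after adding 1 TPM to the scaled values and taking log2. Adding 1 TPM makes the changes of low genes look smaller. At 0 h, 11 of the 25 rose in TKO cells, against 10.5% of all tested genes, and 1 fell, against 5.43%. At 4 h, 13 were higher, against 11% of all genes, and 1 was lower, against 5.82%. The basement membrane set held 6 of the higher calls at each time, and the other collagens held 5 at 0 h and 7 at 4 h. The 11 genes called higher at 0 h were all called again at 4 h, joined by Col2a1 and Col7a1. The 2 comparisons subtract different libraries of the same WT and TKO cells. They share 1 fit, with its filter, scaling and estimate of spread, so the second is not an independent repeat. The gene called lower was Lama1 both times. Without the fold threshold, 3 were lower at 0 h, against 28.2% of all genes, and 5 at 4 h, against 30.3%, both below the background. Without replicate 2 of WT at 4 h, Col18a1 was also called lower at 4 h, which makes 2. Of the 25, 6 lay at or under 1 TPM in both WT groups and passed the filter through their TKO level, and 5 of these were called. Among the 19 over 1 TPM in a WT group, 6 rose and 1 fell at 0 h, and 8 rose and 1 fell at 4 h. With 5 TPM added in place of 1, Col1a2, Col4a5, Col12a1, Lama3 and Lamb3 lost their call at 0 h, and with quantile normalisation Col4a5 and Col12a1 did. At 4 h, Col2a1, Col4a5, Col7a1, Col12a1, Lama3 and Lamb3 lost it with 5 TPM added, and Col2a1, Col7a1 and Col12a1 with quantile normalisation. Col12a1 also lost it at 0 h without a filter on low values, without replicate 1 of WT or without replicate 2 of TKO, and at 4 h without replicate 1 of WT at 4 h. The median log2 change at 0 h was 0.53 over the 25 genes and -0.02 over all tested genes. The 25 include the 6 that passed the filter through their TKO level, and the median depended on the filter. Over the 11 members above a mean of 5 scaled TPM, it was 0.08 at 0 h and -0.02 at 4 h. Over all 54 genes without a filter, it was 0.12 at 0 h and 0.07 at 4 h.

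**Figure D2:**
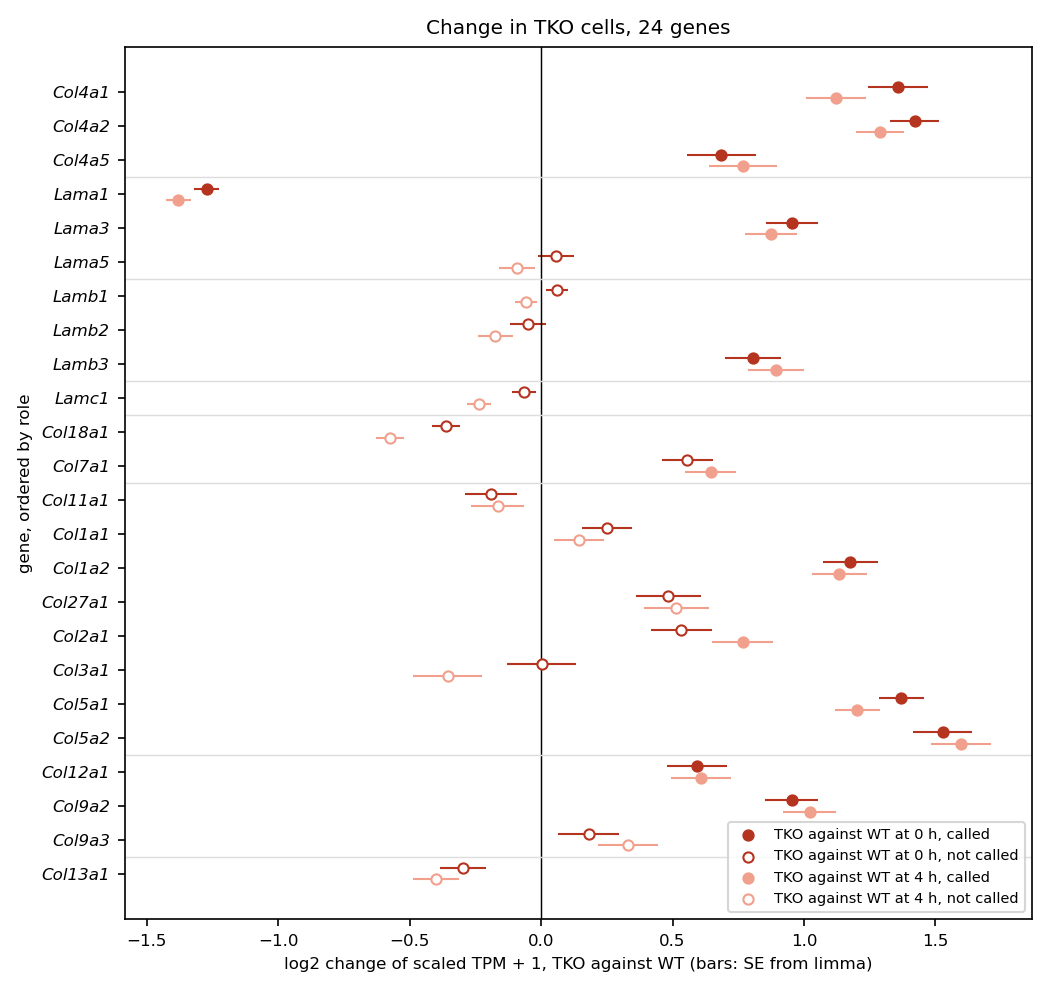
Log2 change of scaled TPM + 1 in TKO against WT for 24 of the 25 genes tested, at 0 h (dark) and 4 h (light), with filled points for called genes and bars for the limma SE. Points of the 2 times lie on the same side of 0 for every called gene shown, from Col5a2 at 1.53 and 1.60 to Lama1 at -1.27 and -1.38. Col4a1 lies at 1.36 and 1.12, and Col2a1 at 0.53 and 0.77.

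Collagen IV rose through the α1 and α2 chains, which assemble in a 2 to 1 ratio in the common collagen IV trimer. Col4a1 lay at 23.1 and 27.7 TPM in WT and at 69.8 and 71.8 TPM in TKO at 0 h, and at 26.3 and 32.9 TPM against 70.4 and 74.7 TPM at 4 h. Col4a2 lay at 8.89 and 9.59 TPM in WT and at 27.0 and 29.5 TPM in TKO at 0 h, and at 9.55 and 11.4 TPM against 28.8 and 31.0 TPM at 4 h. The genotypes did not overlap for either gene. At 0 h, the log2 change was 1.36 ± 0.11 (SE) for Col4a1 (limma, adjusted p = 2.25e-05) and 1.42 ± 0.09 for Col4a2 (limma, adjusted p = 6.12e-06), or 2.61-fold and 2.86-fold on scaled means. The ratio of Col4a1 to Col4a2 stayed between 2.3 and 2.89 in all 11 libraries. Col4a1 (chromosome 8, 11198423 to 11312826, minus strand, in NCBIM37, which is mm9) and Col4a2 (chromosome 8, 11312805 to 11449287, plus strand) are transcribed away from each other, and their annotated spans overlap by 22 bases.

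The other pairs of this family have the same head-to-head layout. In the pair on chromosome X, with a gap of 1308 bases, Col4a5 rose from 0.485 and 0.544 TPM to 1.45 and 1.64 TPM at 0 h (log2 change 0.69 ± 0.13, limma, adjusted p = 2.08e-03). Its partner Col4a6 was not tested and lay at 0.0538 and 0.0937 TPM in WT and at 0.331 and 0.318 TPM in TKO. The pair Col4a3 and Col4a4 on chromosome 1, with a gap of 71 bases, was near 0 throughout, with no library above 0.0356 TPM. The α3, α4 and α5 chains form the collagen IV of the adult kidney filter, and of these Col4a5 alone was over 1 TPM in a group.

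Laminin α chains differed in direction. Lama1 encodes the α1 chain, the classical chain of embryonic laminin. It lay at 52.8 and 50.7 TPM in WT and at 22.3 and 22.3 TPM in TKO at 0 h, and at 48.1 and 52.4 TPM against 21.4 and 20.5 TPM at 4 h. All TKO libraries were thus below all WT libraries, and Lama1 fell 2.48-fold on scaled means at 0 h (log2 change -1.27 ± 0.05, limma, adjusted p = 3.53e-07). Lama5 encodes the α5 chain, which occurs in most basement membranes of the adult. It lay at 56.5 and 47.3 TPM in WT and at 59.6 and 55.6 TPM in TKO at 0 h, with overlap, and was not called (log2 change 0.06 ± 0.07, limma, adjusted p = 0.498). Lama1 thus made up 47.8% and 51.1% of the summed TPM of the 5 α chain genes in WT and 26.0% and 27.3% in TKO at 0 h. The ratio of Lama5 to Lama1 moved from 1.07 and 0.932 to 2.67 and 2.49.

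Lama3 and Lamb3 encode the α3 and β3 chains, which occur in laminins of epithelia such as the epidermis, and both rose. Lama3 went from 0.774 and 0.803 TPM to 2.6 and 2.7 TPM at 0 h (log2 change 0.96 ± 0.10, limma, adjusted p = 6.77e-05). Lamb3 went from 0.582 and 0.734 TPM to 1.97 and 2.11 TPM (log2 change 0.81 ± 0.11, limma, adjusted p = 2.82e-04). No WT library reached a TKO library for either gene, at 0 h or at 4 h. Of the remaining α chains, Lama4, found mainly in vessel walls, lay at 0.402 and 0.447 TPM in WT and at 1.01 and 0.975 TPM in TKO and was not tested. Lama2, the chain of muscle laminin, was at or under 0.268 TPM in every library.

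The common β1, β2 and γ1 chains were not called at either time. Lamb1, whose product pairs with most α chains, lay at 81.1 and 76.7 TPM in WT and at 88.3 and 87.5 TPM in TKO at 0 h. Lamb2 lay at 13.8 and 12.2 TPM against 13.6 and 13.0 TPM. Lamc1, the γ chain of most laminins and the highest laminin gene in every library, lay at 141 and 129 TPM against 139 and 137 TPM. Their log2 changes at 0 h were 0.06 ± 0.04, -0.05 ± 0.07 and -0.06 ± 0.05. Over the settings tried, the sign turned for Lamb1 at 4 h (-0.10 to 0.10), Lamb2 at 0 h (-0.12 to 0.04) and Lamc1 at 0 h (-0.11 to 0.03). It held for Lamb1 at 0 h (0.03 to 0.16), Lamb2 at 4 h (-0.25 to -0.03) and Lamc1 at 4 h (-0.28 to -0.07). The change of Lamc1 at 4 h had an adjusted p of 2.11e-03 (limma) and stayed under 1.5-fold, at -0.24 ± 0.05.

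**Figure D3:**
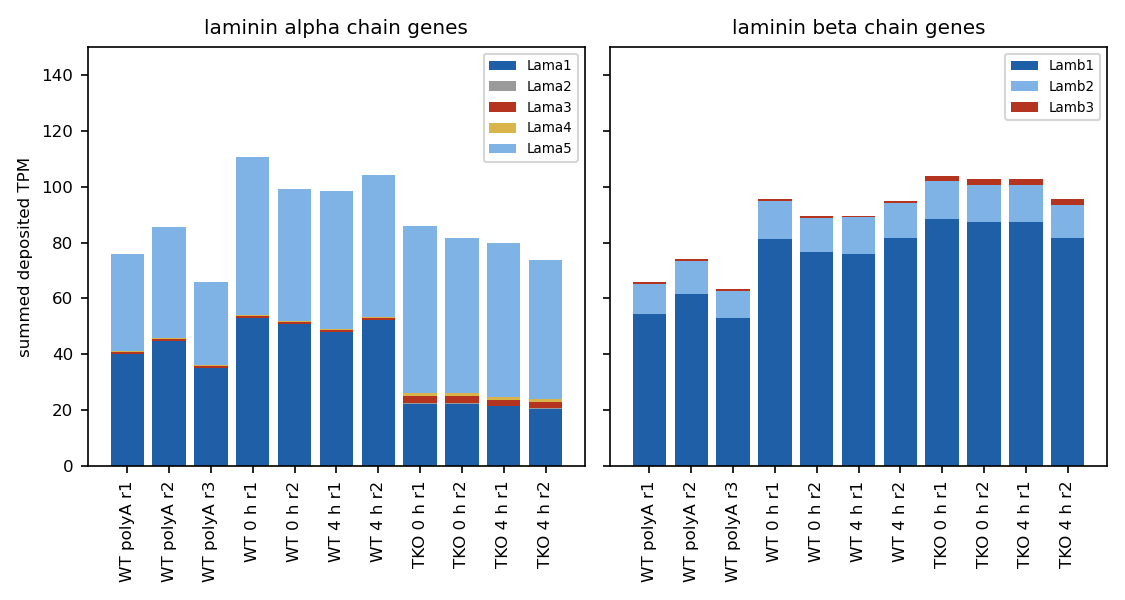
Summed deposited TPM of the laminin α and β chain genes in each of the 11 libraries (r1 to r3 are replicates), stacked by gene. In the α panel the Lama1 block is smaller in the 4 TKO libraries (20.5 to 22.3 TPM) than in any WT library (35.1 to 52.8 TPM), and in the β panel Lamb1 is the largest block throughout.

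To show what the promoters of these genes hold, RefSeq windows from 250 bases before to 50 bases after the transcription start (GRCm38.p6) were read for 40 of the 54 genes. Tet enzymes act on methylated CpG, so CpG dinucleotides are in capitals. The Col4a1 window (chr8:11312777-11313076, minus strand) is shown because it also holds the start of Col4a2, at position 272 from its 5′ end against 251 for Col4a1 itself, Col5a1 (chr2:27886175-27886474, plus strand) and Lamb3 (chr1:193301744-193302043, plus strand) because they rose with very unlike CpG content, and Lamb1 (chr12:31265043-31265342, plus strand) because it was not called.
Col4a1: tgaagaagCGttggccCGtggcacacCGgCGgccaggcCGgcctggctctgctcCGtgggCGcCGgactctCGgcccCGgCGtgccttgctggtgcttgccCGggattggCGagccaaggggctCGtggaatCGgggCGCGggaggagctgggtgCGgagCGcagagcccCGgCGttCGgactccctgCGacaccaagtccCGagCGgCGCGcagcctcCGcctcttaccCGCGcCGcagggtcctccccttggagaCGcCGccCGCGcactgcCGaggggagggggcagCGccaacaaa
Col5a1: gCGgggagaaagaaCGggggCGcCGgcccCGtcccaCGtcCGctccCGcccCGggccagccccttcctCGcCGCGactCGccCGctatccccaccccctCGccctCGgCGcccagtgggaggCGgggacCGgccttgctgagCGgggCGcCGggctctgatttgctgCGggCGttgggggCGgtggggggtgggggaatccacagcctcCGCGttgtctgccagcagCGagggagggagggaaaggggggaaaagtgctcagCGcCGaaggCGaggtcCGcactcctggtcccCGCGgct
Lamb3: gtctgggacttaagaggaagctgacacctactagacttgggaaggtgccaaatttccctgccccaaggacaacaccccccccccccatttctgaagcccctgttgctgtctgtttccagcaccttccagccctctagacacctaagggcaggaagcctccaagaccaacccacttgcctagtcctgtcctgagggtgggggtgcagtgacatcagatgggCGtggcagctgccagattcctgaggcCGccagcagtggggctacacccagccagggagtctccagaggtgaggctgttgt
Lamb1: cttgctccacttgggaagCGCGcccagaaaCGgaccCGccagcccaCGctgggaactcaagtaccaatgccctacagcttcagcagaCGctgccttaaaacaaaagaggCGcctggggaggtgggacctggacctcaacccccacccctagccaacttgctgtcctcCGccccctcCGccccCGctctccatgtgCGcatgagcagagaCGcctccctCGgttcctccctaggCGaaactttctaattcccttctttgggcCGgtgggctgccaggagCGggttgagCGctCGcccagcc
The 4 windows hold 37, 34, 2 and 18 CpG, and 5.37%, 7.47%, 85.4% and 30.1% of all 27025 promoters in the table have at least as many. The median over all promoters was 7.0 CpG. Members called higher at 0 h with a window (7 genes) held between 2 and 37 CpG with a median of 13.0, and members tested and not called (9 genes) held between 0 and 29 with a median of 12.0, so the ranges overlapped widely. Of the 44 windows of the 40 genes, the one with the lowest coordinate was used where a gene had more than 1, and the other window of Lamb3 held 5 CpG and that of Col18a1 16 against 6. On both strands together, the letters GGGCGG occurred in 24 of the 40 windows and in 35.9% of all promoters, CCAAT in 12 and in 37.9%, and TATAAA in 5 and in 14.2%. The 3 motifs were searched independently, so that letters of one match may belong to another, and a match is only a description of the window.

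Col18a1 and Col7a1 are the collagens of the basement membrane zone over 1 TPM. Col18a1 was the highest of the 54 genes in the ribodepleted WT libraries, at 196 and 180 TPM at 0 h, and lay at 160 and 153 TPM in TKO. At 4 h it lay at 204 and 194 TPM in WT and at 154 and 143 TPM in TKO. The TKO libraries were lower at both times, yet the change stayed under 1.5-fold and was not called (log2 change -0.36 ± 0.05 at 0 h, limma, adjusted p = 5.39e-04, and -0.57 ± 0.05 at 4 h, limma, adjusted p = 3.59e-05). Col7a1, whose product forms the anchoring fibrils beneath the epidermis, lay at 3.19 and 3.52 TPM in WT and at 5.79 and 5.77 TPM in TKO at 0 h. At 4 h it lay at 2.53 and 2.98 TPM against 5.85 and 4.9 TPM and was called (log2 change 0.64 ± 0.10, limma, adjusted p = 4.74e-04), a call that was lost without replicate 1 of WT or without replicate 1 of TKO at 4 h.

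Among the fibrillar collagens, Col5a2 and Col5a1, which encode chains of collagen V, had the largest log2 changes of scaled TPM plus 1 in TKO cells. On scaled means with nothing added, Col1a2 differed more than Col5a1, 3.09-fold against 2.91-fold at 0 h and 2.83-fold against 2.52-fold at 4 h. Collagen V starts and limits the growth of collagen I fibrils. Col5a1 lay at 4.82 and 4.99 TPM in WT and at 15.4 and 15.2 TPM in TKO at 0 h (log2 change 1.37 ± 0.08, limma, adjusted p = 4.53e-06). Col5a2 lay at 0.529 and 0.597 TPM in WT and at 3.49 and 4.07 TPM in TKO, a 6.27-fold difference of scaled means (log2 change 1.53 ± 0.11, limma, adjusted p = 1.15e-05). At 4 h Col5a2 differed 6.69-fold, and no TKO library of either gene came near a WT library of ribodepleted RNA. Col5a3, the third chain, lay between 0.758 and 0.951 TPM in ribodepleted WT and between 0.832 and 1.07 TPM in TKO libraries and was not tested there.

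Collagen I, the main protein of bone and tendon, is made of the chains encoded by Col1a1 and Col1a2. Col1a2 lay at 1.61 and 1.48 TPM in WT and at 5.0 and 5.19 TPM in TKO at 0 h (log2 change 1.18 ± 0.10, limma, adjusted p = 3.07e-05). Col1a1 lay at 2.81 and 2.62 TPM in WT and at 3.75 and 3.57 TPM in TKO and was not called (log2 change 0.25 ± 0.09, limma, adjusted p = 0.0497). The ratio of Col1a1 to Col1a2, whose products assemble as 2 α1 chains with 1 α2 chain, was between 1.57 and 1.95 in the ribodepleted WT libraries and between 0.643 and 0.781 in the TKO libraries.

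Of the other fibrillar genes, Col2a1 passed the test at 4 h alone. Col2a1, the collagen of cartilage, lay at 1.2 and 1.32 TPM in WT and at 2.74 and 2.15 TPM in TKO at 0 h, and at 0.768 and 0.925 TPM against 2.31 and 2.31 TPM at 4 h, where it was called (log2 change 0.77 ± 0.12, limma, adjusted p = 5.56e-04), a call lost with quantile normalisation and with 5 TPM added. Col27a1 lay at 0.73 and 0.798 TPM against 1.49 and 1.65 TPM at 0 h without a call (log2 change 0.48 ± 0.12). Col3a1 and Col11a1 were not called either. Col3a1, the collagen of extensible tissues, lay at 1.93 and 2.14 TPM in WT and at 2.15 and 2.21 TPM in TKO at 0 h. Its annotated span ends 24.6 kb from that of Col5a2 in NCBIM37. Col11a1 lay at 1.54 and 1.45 TPM against 1.27 and 1.26 TPM.

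Of the fibril-associated collagens, which sit on the surface of fibrils, Col9a2 and Col12a1 rose. Col9a2 lay at 4.84 and 5.52 TPM in WT and at 12.7 and 10.8 TPM in TKO at 0 h (log2 change 0.95 ± 0.10, limma, adjusted p = 8.32e-05). Col12a1 lay at 0.717 and 0.719 TPM against 1.61 and 1.81 TPM (log2 change 0.59 ± 0.11, limma, adjusted p = 2.35e-03). Col9a3, a partner of Col9a2 in collagen IX, lay at 1.08 and 1.14 TPM against 1.66 and 1.33 TPM and was not called. Col8a1, a network-forming collagen of Descemet's membrane and vessels, lay at 0.685 and 0.501 TPM in WT and at 1.38 and 1.66 TPM in TKO at 0 h and was not tested. Col13a1, a transmembrane collagen, lay at 2.61 and 2.46 TPM against 1.93 and 2.09 TPM and was not called (log2 change -0.30 ± 0.09).

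Of the 29 genes that were not tested, 18 had both TKO libraries above both WT libraries at 0 h and 17 at 4 h. The reverse held for 5 at each time. Among all 7003 genes above 0 that were not tested, 30.2% were higher in this sense at 0 h and 30.7% at 4 h, and 13.1% and 11.5% were lower. A value above 0 in 1 ribodepleted library was enough to enter these 7003, and libraries tied at 0 cannot separate. The 29 genes and the 7003 were not matched for reads, so the shares are only a rough background. Some members separate on very few reads, such as Col4a3 at 4 h, with 0 reads in WT against 1 to 4 in TKO. Collagen VI, a microfibril of most tissues, shows the range. Col6a2 lay at 0.345 and 0.186 TPM in WT and at 0.787 and 0.851 TPM in TKO at 0 h, whereas Col6a4 lay at 0.202 and 0.223 TPM against 0.0986 and 0.0711 TPM.

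Related genes were read from lists of other basement membrane components, collagen-processing enzymes and matrix receptors. Of 15 other basement membrane components, 12 were tested. In TKO cells 4 of them rose and 2 fell at each time, where 10.5% and 5.43% of all tested genes did at 0 h and 11% and 5.82% at 4 h. Sparc, a collagen-binding protein, rose from between 121 and 131 TPM to between 272 and 286 TPM at 0 h, together with Npnt, Tinagl1 and Pxdn, the peroxidasin that cross-links collagen IV. Nid2, which bridges laminin and collagen IV, fell from between 130 and 141 TPM to between 81.7 and 83.5 TPM, as did Smoc1. Of 30 genes for collagen modification, folding and processing, 21 were tested, with 4 higher and 1 lower at 0 h and 2 and 2 at 4 h. The 2 higher at 4 h and the 1 lower at 0 h are close to the shares of all genes given above. Bmp1, which cleaves the C-propeptide of fibrillar procollagens, was higher at both times (log2 change 1.49 ± 0.09 at 0 h, limma, adjusted p = 3.99e-06). Of 17 receptors, 13 were tested, with 5 higher and 1 lower at 0 h and 4 and 2 at 4 h, beside 10.5%, 5.43%, 11% and 5.82% of all genes in the same order. Itga3, the integrin chain that binds laminins with α3 and α5 chains, rose from between 36.2 and 36.4 TPM to between 110 and 113 TPM, and Itga1, a subunit of a collagen receptor, was lower.

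Marker genes of other cell types were read beside these differences, since several also make collagens and laminins. Of 8 fibroblast markers, 2 were tested and Pdgfrl was called higher in TKO cells. Their summed level was 3.62 to 4.56 TPM in ribodepleted WT and 5.3 to 6.9 TPM in TKO libraries. Dcn was at or under 0.0343 TPM in the ribodepleted WT libraries (at most 1 read) and between 0.29 and 0.477 TPM in TKO (8 to 13 reads). Lum was at 0 in 3 of the 4 ribodepleted WT libraries and between 0.129 and 0.25 TPM in TKO (4 to 7 reads). Twist2 lay between 0.0509 and 0.369 TPM in ribodepleted WT (1 to 7 reads). In TKO it lay between 0.525 and 0.847 TPM (9 to 15 reads). Dcn, Lum and Twist2 were not tested and rest on few reads. Fap was at or under 0.0561 TPM in every library. Postn went the other way, from between 0.781 and 1.24 TPM in ribodepleted WT to between 0.225 and 0.321 TPM in TKO. Thy1, the other one tested, was not called (log2 change -0.04 ± 0.13 at 0 h), and Pdgfrb overlapped between genotypes, at 0.457 to 0.712 TPM in WT and 0.431 to 0.608 TPM in TKO. Of 6 trophectoderm markers, 3 were tested and Krt7, a simple-epithelium keratin, was called higher, from between 1.71 and 2.71 TPM in ribodepleted WT to between 30.9 and 38.1 TPM in TKO. The other 2 tested were not called. Tfap2c overlapped between genotypes, at 35.9 to 49.6 TPM in ribodepleted WT and 41.1 to 52.4 TPM in TKO. Eomes lay at 1.56 to 2.25 TPM in ribodepleted WT and 2.53 to 3.28 TPM in TKO. Gata3, Cdx2 and Elf5 were not tested. Gata3 lay at 0.156 to 0.28 TPM in ribodepleted WT and 0.852 to 1.38 TPM in TKO. Its reads numbered 7 to 13 and 37 to 58. Cdx2 lay at 0.766 and 0.71 TPM in WT and at 1.24 and 1.06 TPM in TKO at 0 h. At 4 h it lay at 0.374 and 0.513 TPM against 0.714 and 0.76 TPM. Elf5 overlapped, at 0.0613 to 0.185 TPM in ribodepleted WT and 0.135 to 0.267 TPM in TKO. The summed level of the 6 was 40.6 to 54.6 TPM in ribodepleted WT and 83.5 to 90.5 TPM in TKO, with none at 0 in any library. Krt7 made up most of that difference. Of 8 endoderm markers, 2 were tested, with a summed level of 5.05 to 6.32 TPM in ribodepleted WT and 4.6 to 5.96 TPM in TKO. Gata4 was called lower in TKO at 0 h and not at 4 h (log2 change -0.61 ± 0.10 and -0.52 ± 0.10). Dab2 had the opposite sign without a call, at 0.47 ± 0.11 at each time (limma, adjusted p = 7.00e-03 at 0 h). The others were not tested. Sox17 lay at 0.406 to 0.597 TPM in ribodepleted WT and 0.071 to 0.341 TPM in TKO. Gata6 lay at 0.585 to 0.649 TPM in WT and 0.166 to 0.438 TPM in TKO at 0 h. At 4 h it lay at 0.366 to 0.439 TPM against 0.255 to 0.264 TPM. Over all ribodepleted libraries, Sox7, Foxa2, Pdgfra and Thbd overlapped between genotypes. Of 8 pluripotency markers, all tested, Esrrb, Klf4 and Zfp42 fell in TKO at both times, where 5.43% and 5.82% of all genes did. Of the others, Dppa5a (0.22 ± 0.08), Nanog (0.16 ± 0.08) and Tdgf1 (0.13 ± 0.05) had positive log2 changes at 0 h, and Pou5f1 (-0.34 ± 0.08) and Sox2 (-0.35 ± 0.08) negative ones, none of them called. The part of these markers in the collagen and laminin results was not tested.

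The 4 h treatment with α-amanitin moved no collagen or laminin gene past the threshold. TPM are shares of a library, so a loss common to all transcripts does not show in them. In WT cells none of the 25 genes was called in either direction (limma), against 0.0882% of all tested genes for a rise and 2.01% for a fall. In TKO cells none was called either, where 0% and 0.16% of all genes were. Before adjustment, p was under 0.05 for 10 of the 25 genes in WT, against 49.1% of all genes, and for 0 in TKO cells, against 24.9%. The share of members was thus below that of all genes in both genotypes. A fit with limma voom on recovered reads called 1 gene in WT, Col3a1, and 0 in TKO. Of all 12466 genes in that fit, 34 were higher and 381 lower in WT, and 5 and 48 in TKO. Without the fold threshold, 6 of the 25 were higher at 4 h in WT cells, against 21.9% of all genes, a share close to the background.

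Those 6 genes were Col3a1, Col4a1, Col4a2, Col18a1, Lamc1 and Lamb1. Col3a1 lay at 1.93 and 2.14 TPM at 0 h and at 2.29 and 3.27 TPM at 4 h in WT (log2 change 0.42 ± 0.13, limma, adjusted p = 0.0348), and Lamc1 at 141 and 129 TPM against 142 and 141 TPM (0.23 ± 0.05 on scaled TPM, limma, adjusted p = 9.18e-03). In TKO cells, the largest positive change was 0.24 ± 0.11 for Col9a3 (limma, adjusted p = 0.229). The difference of the 2 treatment effects, tested as an interaction, called 0 of the 25 genes with limma, where 0% of all genes were called in either direction, and 0 with limma voom. Before adjustment, p was under 0.05 for 2 genes, Col18a1 and Lamc1, and for 7.52% of all genes, and the lowest adjusted p was 0.662.

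The WT polyA libraries were compared with the ribodepleted WT libraries at 0 h to see how far RNA selection sets these levels. Selection, kit, depth and time of preparation cannot be told apart here. Of 20 genes tested, 3 were called higher in polyA RNA, where 18.7% of all genes were, and 7 lower, where 16.4% were. On deposited TPM without scaling, 3 of 19 were higher, beside 2764 of 12478 genes, and 4 lower, beside 1619. Without the fold threshold, 5 were higher, against 40.2% of all genes, and 14 lower, against 40.8%. The 3 higher genes were Col6a4, Col6a5 and Col5a3. They were the only tested members at or under 1 TPM in ribodepleted WT at 0 h and passed the filter through their polyA level. Of the 17 members over 1 TPM there, 0 were called higher and 7 lower. Col6a4 lay at 5.41, 5.71 and 5.41 TPM in polyA RNA and at 0.202 and 0.223 TPM in ribodepleted RNA, a 24.1-fold difference of scaled means (log2 change 2.38 ± 0.07, limma, adjusted p = 1.78e-08). Col6a5 lay at 6.28, 6.45 and 5.78 TPM against 0.7 and 0.722 TPM, and Col5a3 at 6.31, 7.1 and 6.29 TPM against 0.951 and 0.91 TPM. Col6a6, the next gene in the Col6a4, Col6a5 and Col6a6 array on chromosome 9, was not tested and lay at 0.675, 0.648 and 0.579 TPM against 0.0765 and 0.0278 TPM. The 3 genes of the array are 28.8 and 28.0 kb apart on the minus strand in NCBIM37.

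**Figure D4:**
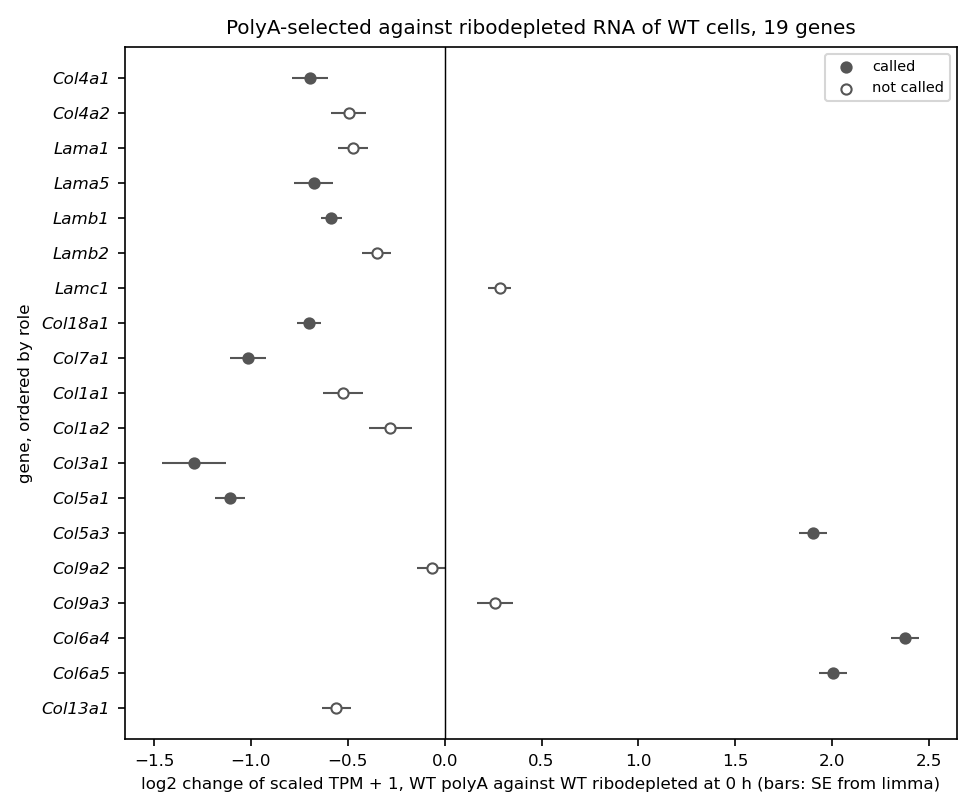
Log2 change of scaled TPM + 1 in WT polyA against WT ribodepleted RNA at 0 h for 19 of the 20 genes tested, with filled points for called genes and bars for the limma SE. Col6a4, Col6a5 and Col5a3 lie between 1.90 and 2.38, and the 7 genes called lower lie between -1.29 and -0.59.

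The 7 lower genes were Col3a1, Col5a1, Col7a1, Col18a1, Col4a1, Lama5 and Lamb1. Col3a1 lay at 0.154, 0.648 and 0.109 TPM in polyA RNA against 1.93 and 2.14 TPM (log2 change -1.29 ± 0.16, limma, adjusted p = 9.10e-05). Replicate 2 stood apart there and also held the most Dcn, at 0.396 TPM against 0 and 0.0348 TPM, and Lum, at 0.106 TPM against 0 and 0. Without it, the log2 change of Col3a1 was -1.46. Col5a1 lay at 1.81, 2.1 and 1.8 TPM against 4.82 and 4.99 TPM (log2 change -1.11 ± 0.08, limma, adjusted p = 2.00e-06). Lamb1 lay at 54.3, 61.5 and 52.9 TPM against 81.1 and 76.7 TPM, with a log2 change of -0.59 ± 0.06 at the fold threshold, and it kept its call under 6 of 14 other settings, not without replicate 1 or 3 of polyA RNA or replicate 1 of WT at 0 h. Col4a1 lost its call without replicate 2 of WT at 0 h, and Lama5 without replicate 3 of polyA RNA. Lamc1 went the other way without a call, at 175, 193 and 163 TPM against 141 and 129 TPM, and was the highest of the 54 genes in polyA RNA. The order of the highest genes therefore differed between RNA types, with Col18a1 first in ribodepleted WT RNA and Lamc1 first in polyA RNA. Lama1 made up between 52.2% and 53.3% of the α chain TPM in polyA RNA.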

How the data were processed

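The 11 deposited files hold 1 TPM value per gene and library, made by the authors by converting HTSeq counts, after removal of ribosomal and transfer RNA reads (Bowtie2), trimming (Trimmomatic) and alignment with STAR to mm9 with RefSeq genes. Tool versions, and whether counting used strand, are not given in the sources used here, so a gene that overlaps another one may hold some of its reads. Groups and replicate numbers came from the sample titles.

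The steps between TPM values gave back whole reads for 99.99% of genes (within 0.2 reads of a whole number in every library, with ratios between libraries matched to 2e-11), for depth and for a voom alternative only. The authors ran DESeq2 on raw counts. The deposited values are TPM, so limma 3.58.1 (R 4.3.3, lmFit and eBayes with a variance trend) was run on log2 of scaled TPM plus 1, with a coefficient for each group. Scaling divided TPM by median-of-ratios size factors. Tests covered genes averaging more than 1 scaled TPM, 12467 in the fit of the 8 ribodepleted libraries and 12478 in a separate fit of WT polyA and WT 0 h libraries. All p-values are two-sided. The script was tested on simulated data. Deviations of libraries with the same number correlated between -0.0443 and 0.119, so no pairing by number was seen. This does not exclude that libraries with the same number were prepared together. Every gene over a mean of 1 TPM in a group was named with its values, except 1 that is counted but not reported here. The members, gene lists and tests were chosen with earlier results of these data known. Gene positions are GENCODE vM1 on NCBIM37, and promoter windows are RefSeq on GRCm38.p6. No coordinate was converted. Tables and plots used Python 3.11.15. Alternatives covered scaling, pseudocount, filter, fold threshold, variance model, voom, replicate block and each library left out.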

Additional observations from a re-analysis of the deposited data

Results flagged for a closer look

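Lamb1, the laminin β1 chain gene, was the only one of the 54 genes in which the TKO libraries lay above the WT libraries at one time and below them at the other on scaled TPM, for genes over 1 scaled TPM in any library. Its scaled TPM was 78.6 and 77.3 in WT and 82.0 and 80.6 in TKO at 0 h, and 85.2 and 88.7 in WT and 84.0 and 83.2 in TKO at 4 h. The log2 difference of TKO against WT was 0.06 at 0 h and -0.06 at 4 h, which makes a change of -0.12. On deposited TPM, TKO lay at 87.5 and 81.5 and WT at 76.0 and 81.6 at 4 h, with a higher mean in TKO, so the order at 4 h depended on the scaling. The limma test of the change, the interaction of genotype and time, did not pass (adjusted p = 0.686). No group holds enough libraries for a test of a library that lies far from the others of its group.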

How the results depend on the processing

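Over the 3 comparisons with calls, the log2 changes of called genes kept their sign in 582 of 582 values under other settings, and 36 lost their call, 10 of them when 1 library was left out. The settings refit the same libraries in which these genes were called, so a kept sign is not separate support. At 0 h 7 of 12 called genes, and at 4 h 8 of 14, stayed called under every alternative that tested them, 16 to 18 for each gene. Counts of genes called higher in TKO at 0 h and 4 h became 6 and 7 with a pseudocount of 5 TPM and 5 and 5 for genes above a mean of 5 TPM, where 11 members were tested. Of all genes, 550 and 582 of 12467 were higher with that pseudocount, and 757 and 836 of 9675 above that mean. Genes called lower became 3 and 5 without the fold threshold, where 28.2% and 30.3% of all genes were lower. At 4 h they became 2 with quantile normalisation, where 856 of 12481 genes were lower, and 2 without a filter, where 892 of 19470 were. With each library left out, the median log2 change of the members tested was 0.47 to 0.56 at 0 h. At 4 h it was 0.51 to 0.67. Over all genes tested, the medians were -0.03 to -0.01 and -0.02 to 0.01. The median of the members depended on the filter, as given above. No pairing by sample number was seen. With the replicate block 11 members were higher at 0 h and 13 at 4 h, beside 1312 and 1373 of 12467 genes. After α-amanitin in WT, 6 members were higher without the fold threshold, against 21.9% of all genes, and 1 with voom, against 34 of 12466 genes.

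For polyA against ribodepleted RNA, 0 were higher above 5 TPM, where the 3 higher genes were not tested. The lower calls became 4 of 19 members on deposited TPM, 3 of 20 with a pseudocount of 5 TPM and 3 of 10 above 5 TPM. Beside them, 1619 of 12478, 1358 of 12478 and 1457 of 9812 genes were lower. Without the fold threshold, 5 members were higher and 14 lower, against 40.2% and 40.8% of all genes. Over 0.5 TPM there were 29 genes in WT at 0 h and 29 at 4 h, with 17 (WT polyA), 18 (WT 0 h) and 18 (WT 4 h) other collagens. Over 2 TPM there were 5 (WT polyA), 7 (WT 0 h) and 9 (TKO 4 h) other collagens. On scaled TPM, the basement membrane sum was 431 in WT at 4 h and 426 in TKO at 0 h, and the other collagens summed to 256 and 206. With Col7a1, Col15a1 and Col18a1 counted as basement membrane, its sum was 483, 574, 592, 624 and 603 TPM (WT polyA, WT 0 h, WT 4 h, TKO 0 h, TKO 4 h), and the others summed to 38.8, 30.8, 30.2, 60.7 and 59.8 TPM. Deposited TPM moved the all-gene median log2 change of TKO against WT at 4 h from -0.01 to 0.14. The cause was not tested for these shifts. Depth limits the 24 members below 1 TPM, which rest on at most 321 reads over the 8 ribodepleted libraries.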
